A study of Mus musculus with 6 samples.

Results

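The genes described here are those of major histocompatibility complex (MHC) class I antigen presentation and the immunoproteasome in mouse prefrontal cortex. They are the 10 rows of the deposited count tables with the symbols B2m, H2-K1, H2-D1, H2-T23, Tap1, Tap2, Tapbp, Nlrc5, Psmb8 and Psmb9, out of 54429 rows in each library, and all 10 passed the filter on low counts. Bulk tissue of mice aged 6 to 8 weeks was compared after injection of AAV9, an adeno-associated virus. There were 3 libraries labelled as injected with shRNA against Kmt5b, a methyltransferase of histone H4, and 3 control libraries labelled as injected with GFP. Both groups thus carry AAV9, and no library of uninjected cortex was analysed here. The labels do not give the promoters that drive the hairpin or GFP, the site of injection or the share of cells reached. The genotype label is C57BL6/J in all 6 libraries, while the study's design text gives a C57BL/6 x C3H cross and counts 2 GFP mice beside 3 shRNA mice. Class I heavy chain genes differ between inbred strains, so a difference of strain between libraries cannot be told apart from a difference of treatment for them. With fewer GFP mice than GFP libraries, 1 mouse may have given more than 1 library, and a p-value then speaks only of the spread among these libraries.

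MHC class I molecules show short peptides from inside the cell to CD8 T cells. Each molecule is a heavy chain, such as H2-K1 or H2-D1, joined to the light chain beta-2 microglobulin, the product of B2m. Peptides are cut by the proteasome, carried into the endoplasmic reticulum by the transporter of Tap1 and Tap2, and loaded with the help of tapasin, the product of Tapbp. Under interferon gamma the catalytic subunits Psmb8 and Psmb9 replace Psmb5 and Psmb6 and form the immunoproteasome. Nlrc5 is a transactivator that binds class I promoters through a complex of RFX, CREB and NF-Y factors. In brain, microglia and endothelial cells carry most class I expression, and neurons express class I genes at lower levels, with roles described in synapse remodelling.

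Values below are CPM, read counts of a gene per unit of library size, with sizes adjusted by the trimmed mean of M values (TMM). Library totals ranged from 48828638 to 57486203 counts in the Kmt5b shRNA group and from 29490771 to 74723284 in the GFP group. Counts of the 10 genes lay between 205 (Psmb9 in GFP replicate 2) and 30347 (B2m in GFP replicate 3). The targeted gene Kmt5b had 68.5, 80.3 and 63.9 CPM in the Kmt5b shRNA libraries, against 86.5, 79.7 and 80.9 CPM in the GFP libraries. Kmt5b shRNA replicate 2 thus lay within the GFP range, and the log2 fold change of Kmt5b was -0.22 with an SE of 0.10 (edgeR adjusted p = 0.303). Each direction below therefore rests on the labels. Its relatives were Kmt5a, higher with a log2 fold change of 0.43 ± 0.11 (SE; edgeR adjusted p = 0.0192) but not called when GFP replicate 2 or 3 or Kmt5b shRNA replicate 1 or 3 was left out, and Kmt5c, with -0.16 ± 0.21 (SE; edgeR adjusted p = 0.805). The cortical neuron markers Slc17a7 and Tbr1 were detected in every library.

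Levels per kilobase of annotated exon differed widely among the 10 genes. B2m stood highest, at a mean of 233 CPM per kilobase in the Kmt5b shRNA libraries and 323 in the GFP libraries. H2-D1 came next, at 49.6 in the Kmt5b shRNA and 73.4 in the GFP libraries, then H2-K1 at 29.8 and 54.5 CPM per kilobase in the same groups. Below them came H2-T23, Tapbp and Tap1, and Psmb9 and Nlrc5 were at the bottom with 1.85 each in the Kmt5b shRNA libraries, against 2.51 and 2.54 CPM per kilobase in the GFP libraries. In both groups the ranges over libraries of H2-D1 and H2-K1 overlapped, as did those of H2-T23 and Tapbp and those of Tap1 and Psmb8. Within a library, H2-D1 was above H2-K1 and Tap1 above Psmb8 in 6 of 6, and H2-T23 above Tapbp in 5 of 6. B2m and H2-D1 did not overlap in either group, nor did H2-K1 and H2-T23, or Tapbp and Tap1.

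The classical heavy chains H2-K1 and H2-D1 had lower averages in the Kmt5b shRNA libraries, but neither difference passed the test. H2-K1 lies on chromosome 17 from 33996017 to 34000347 (mm10, minus strand) and had 64.0, 67.7 and 131.3 CPM in the Kmt5b shRNA libraries, against 121.4, 119.7 and 239.0 CPM in the GFP libraries. The groups overlapped only through Kmt5b shRNA replicate 3, which was above GFP replicates 1 and 2. The H2-K1 means were 87.7 ± 37.8 CPM in the Kmt5b shRNA group and 160.0 ± 68.4 CPM in the GFP group (SD, n = 3 each). Its log2 fold change was -0.87 with an SE of 0.47 (edgeR adjusted p = 0.479), with a 95% interval from -2.12 to 0.38. H2-D1 lies on chromosome 17 from 35262730 to 35267499 and had 90.6, 96.8 and 196.1 CPM in the Kmt5b shRNA libraries, against 155.8, 148.3 and 264.2 CPM in the GFP libraries. Again replicate 3 was the highest library of both groups and made them overlap. The H2-D1 log2 fold change was -0.57 with an SE of 0.44 (edgeR adjusted p = 0.649).

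H2-T23, on chromosome 17 from 36029773 to 36032855, encodes the nonclassical heavy chain Qa-1, a ligand of receptors on natural killer cells. It had 29.1, 41.3 and 50.2 CPM in the Kmt5b shRNA libraries, against 47.8, 27.9 and 44.9 CPM in the GFP libraries. The groups overlapped throughout and both averaged 40.2 CPM, with an SD of 10.6 in the Kmt5b shRNA and 10.7 in the GFP libraries. Its log2 fold change was -0.005 ± 0.27 (edgeR adjusted p = 0.996; SE), with a 95% interval from -0.66 to 0.65. B2m, on chromosome 2 from 122147686 to 122153083, had 150.4, 163.0 and 288.6 CPM in the Kmt5b shRNA libraries, against 204.1, 242.5 and 387.9 CPM in the GFP libraries. Kmt5b shRNA replicate 3 lay above GFP replicates 1 and 2, and the log2 fold change of B2m was -0.47 with an SE of 0.39 (edgeR adjusted p = 0.669).

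**Figure D1:**
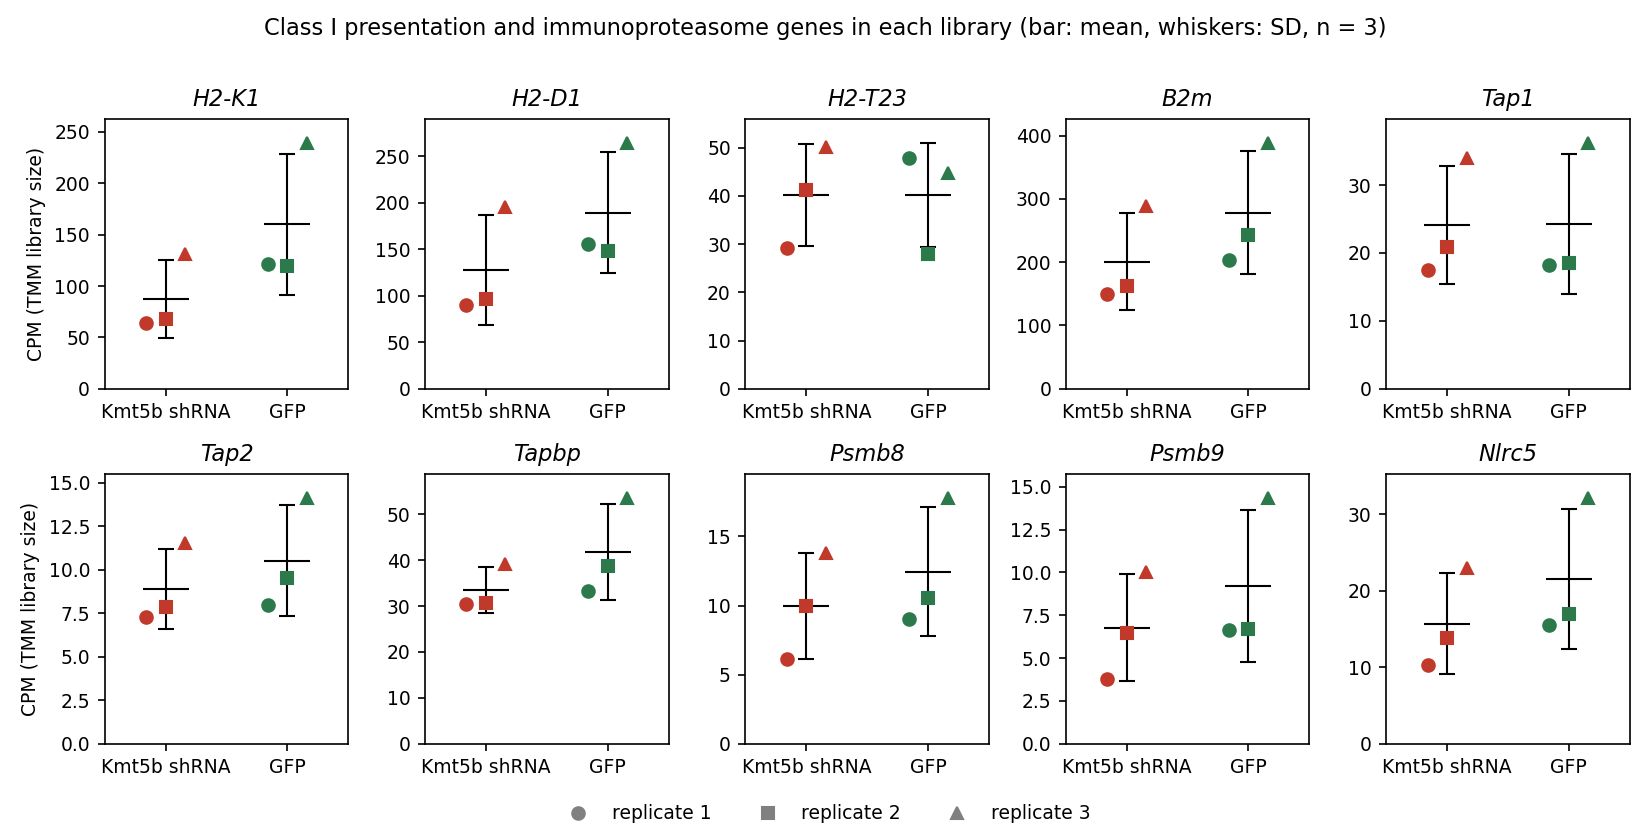
CPM (vertical axis, from 0) of the 10 genes in the 3 Kmt5b shRNA libraries (red, left) and the 3 GFP libraries (green, right), with circles, squares and triangles for replicates 1, 2 and 3, a bar for the mean and whiskers for the SD. Replicate 3 is the highest library of both groups in 9 of the 10 genes, H2-T23 being the exception, and the groups overlap in all 10.

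Reads of the heavy chains are hard to assign, because these genes share long stretches of sequence. The longest match between transcripts of H2-K1 and H2-D1 ran over 1404 nucleotides at 90.6% identity, and both also matched H2-T23 and rows of the H2-Q and H2-T series. Single values of the 3 heavy chains are therefore uncertain. The 17 heavy chain rows with an H2 symbol, from H2-K1 to H2-M5, were also added up, which gave 244.5, 273.8 and 474.8 CPM in the Kmt5b shRNA libraries, against 411.5, 377.7 and 675.1 CPM in the GFP libraries. The sum had a log2 fold change of -0.56 ± 0.37 (SE, edgeR adjusted p = 0.577), so it did not pass either.

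The ratio of H2-K1 to H2-D1 counts within a library does not depend on the library's scaling. It was 0.707, 0.699 and 0.669 in the Kmt5b shRNA libraries, against 0.779, 0.807 and 0.904 in the GFP libraries. These groups did not overlap, with every Kmt5b shRNA library below every GFP library. The difference in log2 ratio was -0.26. Its exact permutation p, two-sided, was 0.1, the smallest that 3 against 3 libraries allow, or 0.3 adjusted over the 3 ratios tested. The ratio of H2-K1 to B2m was 0.426, 0.415 and 0.455 in the Kmt5b shRNA libraries, against 0.595, 0.494 and 0.616 in the GFP libraries. That ratio was added after the values were seen and was not tested. The ratio of H2-D1 to B2m, added and left untested likewise, overlapped between the groups. It was 0.602, 0.594 and 0.68 in the Kmt5b shRNA libraries, against 0.763, 0.612 and 0.681 in the GFP libraries. A ratio of counts does not say which of its 2 genes differs. Between genes sharing sequence it can also depend on how reads were assigned, which was not tested.

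None of the 3 peptide transporter and loading genes passed. Tap1, which encodes one chain of the transporter, lies on chromosome 17 from 34187553 to 34197225. It had 17.5, 20.9 and 33.9 CPM in the Kmt5b shRNA libraries, against 18.2, 18.5 and 36.2 CPM in the GFP libraries. The groups interleaved, with means of 24.1 ± 8.67 CPM in Kmt5b shRNA libraries and 24.3 ± 10.3 CPM in GFP libraries (SD, n = 3 each) and a 95% interval of the log2 fold change from -1.11 to 1.08. Tap2, which encodes the other chain, had 7.29, 7.83 and 11.6 CPM in the Kmt5b shRNA libraries, against 7.95, 9.50 and 14.1 CPM in the GFP libraries. Its log2 fold change was -0.25 with an SE of 0.23 (edgeR adjusted p = 0.687). Tapbp varied least of the 10 genes within the groups, by 15.0% of the mean in the Kmt5b shRNA and 25% in the GFP libraries. It had 30.5, 30.6 and 39.2 CPM in the Kmt5b shRNA libraries, against 33.3, 38.7 and 53.5 CPM in the GFP libraries. Tap2 lies on chromosome 17 from 34203527 to 34216321 and Tapbp from 33915899 to 33929292. The Tapbp log2 fold change was -0.32 with an SE of 0.17 (edgeR adjusted p = 0.366), with a 95% interval from -0.69 to 0.04.

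Both immunoproteasome subunits were near the low end of the 10 genes and overlapped between groups. Psmb8, which replaces Psmb5 and carries the chymotrypsin-like activity, lies on chromosome 17 from 34197721 to 34201454. It had 6.12, 9.98 and 13.8 CPM in the Kmt5b shRNA libraries, against 9.04, 10.5 and 17.8 CPM in the GFP libraries, a log2 fold change of -0.33 ± 0.38 (SE, edgeR adjusted p = 0.785). Psmb9, which replaces Psmb6, lies on chromosome 17 from 34181987 to 34187764. It had 3.80, 6.46 and 10.03 CPM in the Kmt5b shRNA libraries, against 6.61, 6.67 and 14.3 CPM in the GFP libraries. Only Kmt5b shRNA replicate 3 lay above a GFP library, and the log2 fold change of Psmb9 was -0.46 with an SE of 0.48 (edgeR adjusted p = 0.757). Exons of Psmb9 and Tap1 overlap on opposite strands over 212 nucleotides, and the strand setting of the counting is not given in the sources used here, so reads in that stretch may be shared between the pair.

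Ratios to the standard subunits were set against this. Psmb8 to Psmb5 stood at 0.154, 0.254 and 0.391 in the Kmt5b shRNA libraries, against 0.257, 0.410 and 0.606 in the GFP libraries, with a difference in log2 ratio of -0.69. Its exact permutation p was 0.2, and 0.3 adjusted over the 3 ratios. Psmb5 shares nearly identical sequence with Gm3375, and with the counts of Gm3375 added to Psmb5, a step added later with the values known, the difference was -0.38 (exact permutation p = 0.5). Psmb9 to Psmb6 stood at 0.0470, 0.0715 and 0.131 in the Kmt5b shRNA libraries, against 0.0734, 0.0932 and 0.187 in the GFP libraries. Its difference in log2 ratio was -0.51 (exact permutation p = 0.4, and 0.4 adjusted over the 3 ratios). The groups overlapped for both pairs, because replicate 3 was the highest and replicate 1 the lowest library of each group.

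**Figure D2:**
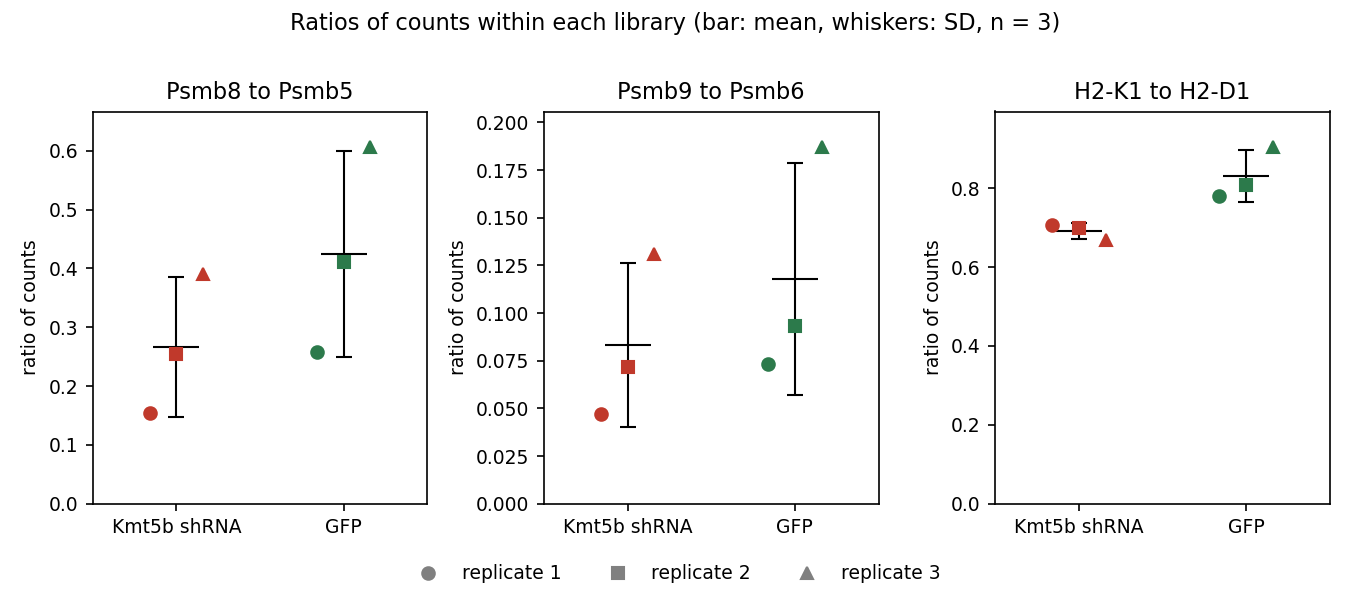
Ratio of counts (vertical axis, from 0) of Psmb8 to Psmb5, Psmb9 to Psmb6 and H2-K1 to H2-D1 in the 3 Kmt5b shRNA libraries (red, left) and 3 GFP libraries (green, right), with a bar for the mean and whiskers for the SD. The proteasome ratios overlap between groups, while H2-K1 to H2-D1 runs from 0.669 to 0.707 in the Kmt5b shRNA and from 0.779 to 0.904 in the GFP libraries.

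Nlrc5, the class I transactivator, lies on chromosome 8 from 94434356 to 94527272. It had 10.2, 13.9 and 22.99 CPM in the Kmt5b shRNA libraries, against 15.5, 17.02 and 32.1 CPM in the GFP libraries. Kmt5b shRNA replicate 3 exceeded GFP replicates 1 and 2, and the log2 fold change was -0.46 with an SE of 0.45 (edgeR adjusted p = 0.735). Of 21 other regulators of class I transcription, 1 was higher in the Kmt5b shRNA libraries and 0 lower, with a median log2 fold change of -0.01. The one called, Nfyc, encodes a subunit of NF-Y and had 28.5, 28.0 and 29.3 CPM in the Kmt5b shRNA libraries, against 17.4, 19.9 and 17.2 CPM in the GFP libraries (log2 fold change 0.66 ± 0.10, edgeR adjusted p = 3.1e-04). Its near-identical copy Gm9144 had a log2 fold change of -5.35, and both together had 28.7 ± 0.66 CPM in Kmt5b shRNA libraries and 23.6 ± 1.12 CPM in GFP libraries (SD, n = 3 each, exact permutation p = 0.1). Irf1, an interferon-induced activator of class I genes, had a log2 fold change of -0.35 ± 0.28 (edgeR adjusted p = 0.638). The X-box factor Rfx5 had -0.15 ± 0.12 (edgeR adjusted p = 0.643).

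Taking the 10 genes as a set, 0 passed in either direction at an edgeR adjusted p under 0.05, where 5.69% of all 24419 genes tested were called lower and 2.77% higher (8.46% in either direction). All 10 are protein-coding, and fitted among 15778 protein-coding genes alone, where 1.17% were lower and 2.99% higher, 0 passed as well. Among 12205 protein-coding genes whose longest transcripts shared no sequence, where 0.311% were lower and 0.639% higher, 0 of the 7 members kept there passed. At an unadjusted p under 0.05 the number was also 0 in the fit of all 24419 genes (17.4% of them), and DESeq2 and limma-voom called 0 each. The groups overlapped in all 10, while they did not overlap in 22.5% of all genes. All 10 log2 fold changes were below 0 with TMM scaling, from -0.87 to -0.005 with a median of -0.39, beside a median of -0.02 and 52.7% below 0 over all genes. With relative log expression (RLE) scaling 9 were below 0 and with DESeq2 8, since H2-T23 and Tap1 turned to values just above 0. Without GFP replicate 3 the median was -0.01 with 5 below 0, and without Kmt5b shRNA replicate 3 it was -0.73 with 10 below 0. The genes share regulators and libraries, so their common sign is a description and not 10 separate observations.

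**Figure D3:**
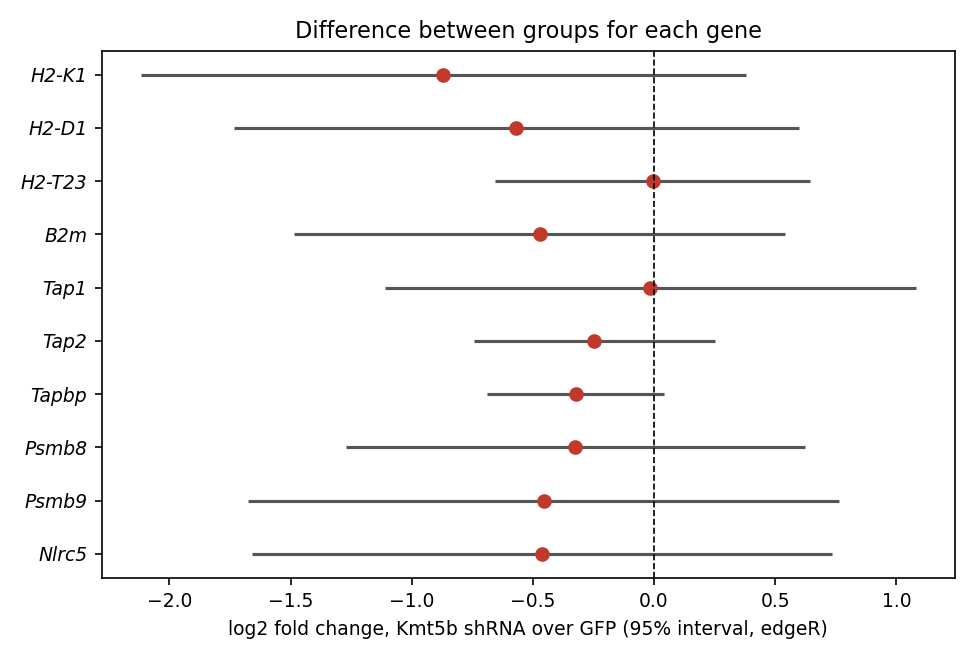
Log2 fold change of each gene, Kmt5b shRNA over GFP (horizontal axis), from the edgeR fit of all genes, with points for the estimate and lines for the 95% interval. All 10 intervals include 0, and those of H2-K1 and Psmb9 span more than those of Tap2 and Tapbp.

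The median SE of the 10 genes was 0.40 on the log2 scale, against 0.11 over genes at least as abundant as the lowest of them. To be called in this fit, H2-K1 would have needed a log2 difference of 2.54 and Tapbp one of 0.59. The interval of H2-K1 runs from a decrease of 77.0% to an increase of 30.2%, so a large decrease in class I heavy chain RNA was neither shown nor bounded away.

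Replicate 3 was the highest library of both groups in 9 of the 10 genes, which held for 16.5% of all genes tested. Relative to the mean of replicates 1 and 2, replicate 3 stood at 1.28 times for Tapbp to 2.09 times for H2-D1 in the Kmt5b shRNA group. In the GFP group it stood at 1.18 times for H2-T23 to 2.16 times for Psmb9. Kmt5b shRNA replicate 1 was the lowest library of its group in all 10 genes. The 10 genes summed to 409.5, 458.4 and 797.8 CPM in the Kmt5b shRNA libraries, against 619.7, 639.2 and 1104 CPM in the GFP libraries. Replicate numbers were not shown to pair the libraries.

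Genes outside the set were ranked by the Pearson correlation of their log2 CPM with the mean standardised profile of the 10 genes over the 6 libraries. The 5 named genes nearest were Tmem67 (r = 0.994), Mir690 (0.990), Plbd1 (0.988), Il10ra (0.988) and Clec12a (0.987). Il10ra encodes a chain of the interleukin-10 receptor, Clec12a a myeloid lectin receptor and Tmem67 a protein of the cilium. With 6 points chosen from 24419 genes these values are descriptions only.

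Of the 10 genes, 8 lie on chromosome 17, and 8 have a promoter window, from 250 bases before to 50 after the transcript start, in RefSeq (GRCm38.p6). Nlrc5 and Tap2 are the members without one. The promoters are shown because class I genes are known for a shared upstream module, in which an X2 half-site (TGACG) is followed at a set distance by an inverted CCAAT box, or Y box (ATTGG), bound by NF-Y. The following 30-base stretches, 5′ to 3′ on the gene's strand, carry both motifs in capitals with 20 bases between them.
B2m: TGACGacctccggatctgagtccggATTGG
H2-K1: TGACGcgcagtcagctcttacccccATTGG
H2-D1: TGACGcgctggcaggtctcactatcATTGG
They lie at chr2:122147609-122147638 on the plus strand for B2m, chr17:34000359-34000388 on the minus strand for H2-K1 and chr17:35262993-35263022 on the plus strand for H2-D1. Relative to the RefSeq start they begin at base -78 in B2m, -41 in H2-K1 and -101 in H2-D1. A second RefSeq start of H2-K1 places its pair at -55, and the H2-D1 stretch lies inside the gene span given above, which in GENCODE M21 begins upstream of the RefSeq start. The spacing was chosen after the promoters of these genes were read. TGACG-N20-ATTGG, searched on both strands, occurs in the windows of 27 of 27025 genes (0.0999%), against 23% with TGACG and 41.1% with ATTGG on their own. TGACG is found in 5 of the 8 members with a window and ATTGG in 7, and the 3 genes shown are the members with both at this distance. H2-M3, a class I heavy chain outside the 10 genes, also carries the spaced pair. Most of the 27 carriers, such as Per1 and Hnrnpf, are on none of the pathway, proteasome, class II and interferon lists read below.

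Longer stretches show what stands upstream of the pair in B2m and H2-K1. The capitals mark, in B2m, an interferon-stimulated response element (GAAA, any pair of bases, GAAA) and the pair, and in H2-K1 the kappa B site of enhancer A near the start and the pair.
B2m: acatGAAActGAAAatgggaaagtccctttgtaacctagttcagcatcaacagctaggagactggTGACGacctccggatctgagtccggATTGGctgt
H2-K1: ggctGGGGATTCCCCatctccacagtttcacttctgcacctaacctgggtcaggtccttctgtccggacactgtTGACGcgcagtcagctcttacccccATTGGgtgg
These lie at chr2:122147544-122147642 (plus strand) and chr17:34000355-34000462 (minus strand). Searched on both strands, the exact letters given above for the response element occur in windows of 3.99% of genes, here B2m and H2-T23. The letters of the kappa B site occur in windows of 0.0333% of genes, here H2-K1 and H2-D1. Response elements with other letters were not searched for, so H2-K1 and the other members were not shown to lack one. TTCNNNGAA, a gamma-activated site, occurs in 9.55% of genes and here in Psmb8. These matches describe letters in a window and are not evidence of binding in these samples. Tap1 and Psmb9 face away from each other, and their RefSeq starts are 225 bases apart, so their windows share 275 bases. The ratio of Psmb9 to Tap1 counts, added after the values were seen and not tested, did not overlap between the groups. It was 0.217, 0.309 and 0.295 in the Kmt5b shRNA libraries, against 0.363, 0.362 and 0.396 in the GFP libraries. Psmb8 to Psmb9, added likewise, overlapped. That ratio was 1.61, 1.55 and 1.38 in the Kmt5b shRNA libraries, against 1.37, 1.58 and 1.24 in the GFP libraries.

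Among 15 other class I and class I-like heavy chains tested, 2 were lower in the Kmt5b shRNA libraries and 0 higher, with a median log2 fold change of -0.38 and 11 below 0. Leaving out GFP replicate 1 gave 4 lower of 17 that then passed the filter. Leaving out any other library gave 1, of 17 or 15 tested. DESeq2, run without that filter, called 4 on this list and limma-voom 1. H2-T10, of the nonclassical series and annotated as a polymorphic pseudogene, had 1.09, 1.14 and 1.29 CPM in the Kmt5b shRNA libraries, against 1.63, 6.44 and 7.26 CPM in the GFP libraries (log2 fold change -2.11 ± 0.51, edgeR adjusted p = 0.0445). Of 6 fits that each left out a library, it passed only in the one without GFP replicate 1, and its adjusted p reached 0.266 without Kmt5b shRNA replicate 2. H2-T10 is 97.4% identical over 1495 nucleotides to H2-T22, which had a log2 fold change of 0.01. The rows H2-Q10, H2-T3 and Gm11127 were likewise highest in GFP replicates 2 and 3. In the GFP libraries H2-Q10 had 12, 52 and 151 counts, H2-T3 0, 12 and 34, and Gm11127 0, 77 and 336. In the Kmt5b shRNA libraries they had 3, 0 and 4, then 0, 1 and 0, and 6, 0 and 2. Why GFP replicate 1 was unlike the other GFP libraries in these rows was not tested, and H2-M2 below did not share this order. H2-M2, also of the nonclassical series, was low throughout, at 0.0351, 0.0430 and 0.109 CPM in the Kmt5b shRNA libraries, against 0.703, 0.651 and 0.281 CPM in the GFP libraries (log2 fold change -3.05 ± 0.64, edgeR adjusted p = 0.00466), and it passed with each library left out in turn. H2-Q7, which encodes the Qa-2 antigen, averaged 5.41 ± 2.93 CPM in Kmt5b shRNA libraries and 14.6 ± 7.49 CPM in GFP libraries (SD, n = 3 each) and did not pass (edgeR adjusted p = 0.305). The Fc receptor Fcgrt and the metabolite-presenting Mr1 had log2 fold changes of -0.11 and -0.01. Of the 15 genes tested, 4 were above 0, among them H2-T24 with 0.42 ± 0.14 and Hfe with 0.42 ± 0.17 (SE). Neither passed (edgeR adjusted p = 0.0883 and 0.191).

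The downstream and upstream partners of the pathway gave few calls. Of 13 peptide loading, chaperone and trimming genes 0 passed in edgeR, 1 had an unadjusted p under 0.05, DESeq2 and limma-voom called 0, and the median log2 fold change was 0.06. Of 8 receptors of class I molecules 0 passed in edgeR, 3 had an unadjusted p under 0.05, DESeq2 and limma-voom called 0, and the median was -0.63. Among them the T cell co-receptor genes Cd8a and Cd8b1 had log2 fold changes of -0.79 ± 0.34 and -1.28 ± 0.52 (edgeR adjusted p = 0.236 and 0.188). Pirb, an inhibitory receptor of class I molecules, had -0.90 ± 0.37 (edgeR adjusted p = 0.227).

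Of 6 further immunoproteasome and proteasome regulator genes, 1 was higher. Psme2, which encodes the beta subunit of the PA28 activator, had 14.2, 15.3 and 17.4 CPM in the Kmt5b shRNA libraries, against 7.19, 7.06 and 8.44 CPM in the GFP libraries (log2 fold change 1.04 ± 0.14, edgeR adjusted p = 5.3e-05). Its copy Psme2b, 99.4% identical over 794 nucleotides, was lower, at 5.95 ± 0.75 CPM in Kmt5b shRNA libraries and 14.4 ± 1.7 CPM in GFP libraries (edgeR adjusted p = 1.6e-05, SD, n = 3 each). Added together they had 21.6 ± 2.20 CPM in Kmt5b shRNA libraries and 21.96 ± 2.46 CPM in GFP libraries (exact permutation p = 0.9). How reads were divided between the pair was not tested. Psme1, the alpha subunit, had a log2 fold change of -0.02, and Psmb10, the remaining inducible catalytic subunit, had -0.16 ± 0.10 (edgeR adjusted p = 0.483).

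Of 14 standard core proteasome subunits 3 were higher, Psma3, Psma5 and Psmb3, with log2 fold changes of 1.30, 1.20 and 0.54 and edgeR adjusted p of 8.8e-08, 2.4e-06 and 0.00245. Each shares sequence with annotated processed pseudogenes. Psma3 with its copy Gm13835 had 114.1 ± 7.18 CPM in Kmt5b shRNA libraries and 85.9 ± 7.54 CPM in GFP libraries (SD, n = 3 each, exact permutation p = 0.1). Psma5 with Gm8394 and Gm12989 had 59.9 ± 8.71 CPM in Kmt5b shRNA libraries and 50.1 ± 5.09 CPM in GFP libraries (exact permutation p = 0.2). The 7 members other than the heavy chains had no such copy by the same search.

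MHC class II genes, which present extracellular peptides and are read from promoters with the same kind of module, were read in the same fit. Of 11 tested, 0 were higher and 1 lower (DESeq2 called 2), and all 11 log2 fold changes were below 0, with a median of -1.35. The list summed to 208.0, 258.3 and 457.1 CPM in the Kmt5b shRNA libraries, against 412.8, 451.7 and 778.9 CPM in the GFP libraries, and replicate 3 was again the highest of both groups. The gene called, H2-Eb2, a class II beta chain, had at most 0.109 CPM in Kmt5b shRNA libraries and at most 1.20 CPM in GFP libraries (log2 fold change -3.68 ± 0.62, edgeR adjusted p = 7.1e-04). Cd74, the invariant chain, averaged 49.2 ± 31.5 CPM in Kmt5b shRNA libraries and 142.2 ± 69.5 CPM in GFP libraries (SD, n = 3 each) and did not pass (edgeR adjusted p = 0.364). Ciita, the class II transactivator and a relative of Nlrc5, had -0.74 ± 0.41 (edgeR adjusted p = 0.454). The class II median was -0.75 when GFP replicate 3 was left out, and the number lower was 2 and 3 when Kmt5b shRNA replicate 3 or GFP replicate 1 was left out in turn.

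The interferon lists did not share one direction with the class I genes. Of 30 type I interferon-stimulated genes 2 were higher and 0 lower, with 30 above 0 and a median of 0.55, which was 0.24 without Kmt5b shRNA replicate 3. DESeq2 called 10 of these genes and limma-voom 2, and 16 had an unadjusted edgeR p under 0.05. Rsad2 and Oasl2, both antiviral proteins, were the 2 called, and both lost the call when GFP replicate 2 or GFP replicate 3 was left out, Rsad2 also without replicate 1 of either group. Dropping the Kmt5b shRNA libraries singly, in order of replicate number, gave 2, 11 and 3 genes of this list higher. Dropping the GFP libraries in the same order gave 3, 0 and 0. The whole list summed to 535.8, 463.1 and 783.1 CPM in the Kmt5b shRNA libraries, against 445.2, 410.4 and 420.5 CPM in the GFP libraries. Of 18 interferon gamma-induced genes 1 was higher, the chemokine Cxcl10, and 1 lower, the GTPase Tgtp1, with a median of -0.12, and DESeq2 called 4. The Cxcl10 call was lost without GFP replicate 2 or 3 or Kmt5b shRNA replicate 3. Tgtp1 is 99.8% identical to Tgtp2, which had a log2 fold change of -0.82 (edgeR adjusted p = 0.212). The median of this list was 0.16 when Kmt5b shRNA replicate 1 was left out and 0.13 when GFP replicate 3 was, so it changed sign with single libraries.

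Markers of cell types that carry or recognise class I molecules were read beside these values. Microglia markers summed to 752.7 to 1015 CPM in Kmt5b shRNA libraries and 722.7 to 922.9 CPM in GFP libraries, with 1 of 15 higher (Fcrls, a receptor gene of microglia), 0 lower and a median of -0.01. Endothelial and mural markers summed to 578.4 to 608.3 CPM in Kmt5b shRNA libraries and 549.4 to 607.7 CPM in GFP libraries, with 0 of 14 called by edgeR, 0 at an unadjusted p under 0.05, and 0 by DESeq2 or limma-voom. Both sums overlapped between the groups. Of 24 T, NK and B cell markers 10 were lower and 0 higher, with a median of -1.57 and sums of 72.2 to 82.1 CPM in the Kmt5b shRNA against 268.4 to 853.9 CPM in the GFP libraries. DESeq2 called 12 of these markers and limma-voom 4. Those of smallest p were Cd4 (log2 fold change -1.65), the T cell receptor subunit Cd3g (-1.79) and the B cell receptor subunit Cd79a (-2.72). When Kmt5b shRNA replicates 1, 2 and 3 were left out in turn, the number lower was 3, 5 and 9, and for GFP replicates 1, 2 and 3 it was 14, 8 and 6. None of the 24 was at 0 in all libraries. Without the immunoglobulin genes Ighm and Jchain the sums were 34.6 to 43.4 CPM in Kmt5b shRNA libraries and 42.8 to 72.7 CPM in GFP libraries, so they overlapped. That overlap rests on Trbc2, a T cell receptor constant gene with 24.97, 33.1 and 23.8 CPM in the Kmt5b shRNA libraries, against 24.4, 16.01 and 21.6 CPM in the GFP libraries (edgeR adjusted p = 0.207). Without Trbc2 as well, a step added with the values known, the sums of the other 21 markers were 9.63 to 17.7 CPM in Kmt5b shRNA libraries and 21.05 to 51.1 CPM in GFP libraries and did not overlap. The part of lymphocytes in the class I values was not tested, and in bulk tissue fewer cells of a type and less RNA per cell cannot be told apart.

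Markers of infiltrating myeloid cells summed to 38.7 to 50.1 CPM in Kmt5b shRNA libraries and 38.8 to 77.5 CPM in GFP libraries, with 1 of 11 lower (Flt3, a receptor of dendritic cells and progenitors; DESeq2 called 2) and Ly6g, the neutrophil marker, at 0 in every library. Of 10 astrocyte markers 3 were lower, Aqp4, Gja1 and Gjb6, with log2 fold changes of -0.64, -0.51 and -0.63. The astrocyte list had 8 below 0 and 2 above. It summed to 4249 to 4844 CPM in Kmt5b shRNA libraries and 4974 to 5109 CPM in GFP libraries, without overlap. Gja1 lost the call without replicate 3 of either group, and Gjb6 without Kmt5b shRNA replicates 2 or 3 or GFP replicates 1 or 2. Of 13 neuron markers 1 was lower, Pvalb, with -0.58. Oligodendrocyte markers had a median of -0.41 with 10 of 10 below 0, and fibroblast and meningeal markers one of -0.16 with 7 of 8. Of these 2 lists, 0 of 10 and 0 of 8 were called by edgeR, with 1 each at an unadjusted p under 0.05. DESeq2 called 1 each and limma-voom 0 each. The part of these lists in the class I values was not tested.

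**Figure D4:**
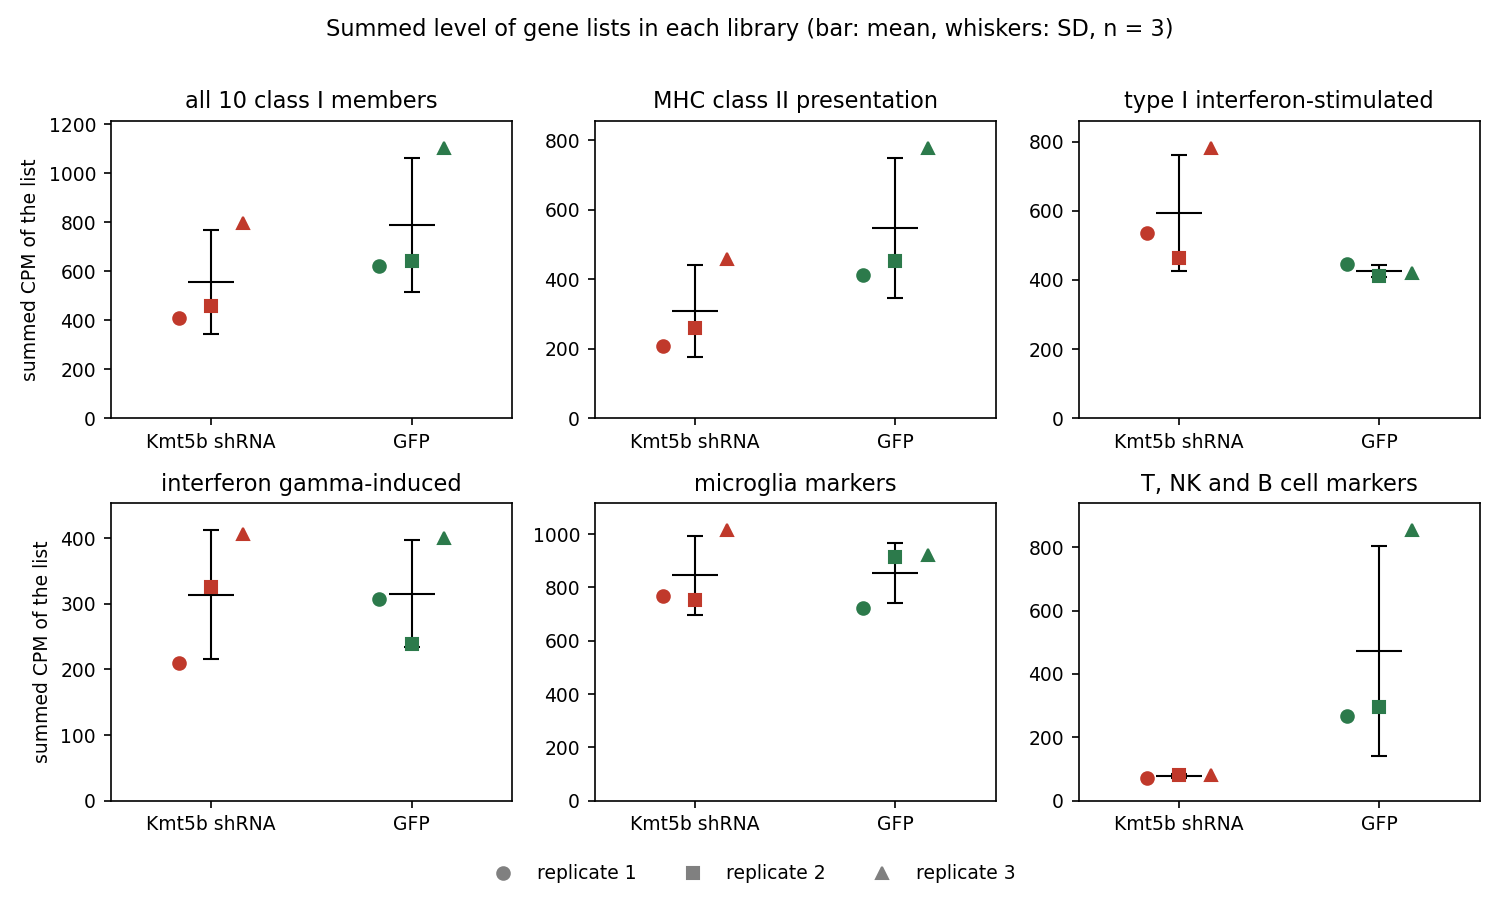
Summed CPM (vertical axis, from 0) of 6 gene lists in the 3 Kmt5b shRNA libraries (red, left) and 3 GFP libraries (green, right), with a bar for the mean and whiskers for the SD. The class I and class II sums are highest in replicate 3 of both groups, the type I interferon sum is higher and the lymphocyte sum lower in every Kmt5b shRNA library, and the microglia sums overlap.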

How the data were processed

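The deposited files hold raw read counts per gene symbol, 1 file per library, with 54429 rows each. Per the labels' protocols, ribosomal RNA was depleted, libraries were strand-specific and TopHat2 was the aligner, while the submitters' processing notes name STAR, featureCounts, DESeq2 and the build mm10. Versions, annotation and strand setting are not given in the sources used here. Of the rows, 53749 matched a GENCODE M21 symbol, which gave coordinates and exon lengths.

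Counts were fitted over all genes with edgeR 4.0.16 in R 4.3.3 (filterByExpr, TMM, robust quasi-likelihood fit with legacy=TRUE, no block), and Benjamini-Hochberg adjusted p under 0.05 over 24419 genes was called. Each SE was derived from the fold change and its F statistic, and intervals use 95% confidence. Replicates differed beyond sampling noise (chi-square per gene from 16.5 to 40.3). Ratios were tested by two-sided exact permutation over libraries. Shared sequence was found with BLAST+ 2.17.0 between GENCODE M21 transcripts, at 90% identity over at least 200 nucleotides. For the members, all transcripts were searched, and matches from 100 nucleotides were kept too if 100% identical. The other lists and the set sharing no sequence used only longest transcripts of protein-coding genes and pseudogenes. There a match over 50% of either transcript also counted. Tap1 and Psmb9 stayed in that set despite their shared stretch.

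The members and gene lists were chosen with earlier results of these data known. Named genes were the 10 members, the Kmt5b family, up to 3 called genes per list and direction by smallest p, and the 5 genes of nearest profile. Others in the text were chosen after their values were seen. Alternatives were DESeq2 1.42.0, limma-voom 3.58.1, other scalings, filters and gene sets, a replicate block, and each library left out.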

Additional observations from a re-analysis of the deposited data

How the results depend on the processing

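The members called stayed at 0 higher and 0 lower under RLE scaling, library totals, DESeq2, limma-voom, both filters, the 3 restricted or summed gene sets and with each library left out (0 to 0). The exception was the replicate block, which called 4 lower. There H2-K1 had -0.87, H2-D1 -0.61, B2m -0.48 and Nlrc5 -0.46 on the log2 scale, with edgeR adjusted p of 2.8e-05, 0.00142, 0.00571 and 0.0215. Over all genes, the deviations of same-numbered libraries correlated at -0.0344, -0.0102 and 0.218 for replicates 1, 2 and 3. The highest correlation of unlike numbers was 0.21. The 2 of 6 libraries that correlated best with their own number were those of replicate 3. As this did not hold for replicates 1 and 2 and the labels state no pairs, the numbers were not taken as pairs. The block changed the calls over all genes to 704 higher and 1507 lower, and it left the 3 log2 ratios at -0.69, -0.51 and -0.26. Over all genes, 676 were higher and 1390 lower. Protein-coding genes alone gave 184 lower, and genes whose longest transcripts shared no sequence 78 higher and 38 lower. Leaving out a library gave 467 to 822 higher and 1229 to 1510 lower. The same step gave log2 ratio differences of -1.02 to -0.34 for Psmb8 to Psmb5, -0.91 to -0.12 for Psmb9 to Psmb6 and -0.31 to -0.20 for H2-K1 to H2-D1. The sign turned for H2-T23 with RLE scaling (0.004), DESeq2 (0.011) and the block (0.001), and it ranged from -0.199 to 0.183 over left-out libraries. For Tap1 it turned with DESeq2 (0.001) and the block (0.008), and ranged from -0.337 to 0.397. Over left-out libraries Tap2 ranged from -0.473 to 0.033, Psmb8 from -0.629 to 0.032 and Psmb9 from -0.85 to 0.026, each above 0 without GFP replicate 3. H2-K1 ranged from -1.275 to -0.46, H2-D1 from -1.009 to -0.25, B2m from -0.821 to -0.154, Nlrc5 from -0.838 to -0.048 and Tapbp from -0.464 to -0.103. The cause of these changes was not tested. Without Kmt5b shRNA replicate 3, 4 members had an unadjusted p under 0.05, as had 4104 of all 25368 genes tested there. The replicate block gave 7 members (4484 of 24419 genes). With no filter on low counts the number was 1 member (5852 of 39044 genes). Without GFP replicate 1 it was also 1 (4942 of 25268 genes). The lowest count of any member in a library was 205.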
